A study of Homo sapiens with 20 samples.

Results

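The genes examined here encode interleukins, the subunits of their receptors and 1 secreted interleukin antagonist. RUNX1 binding around them was compared between THP-1 cells with and without knockdown of the transcription factor PU.1. The list held 39 genes. Its members were all RUNX1 ChIP-seq peaks within 50 kb of the GRCh38 RefSeq span of such a gene, which gave 129 peaks of the 26642 in the deposited count table. Peaks were found near 35 of the 39 genes, and 4 genes (IL7, IL9R, IL12RB2 and IL33) had none listed within 50 kb. A further 22927 peaks lay within 50 kb of some other protein-coding gene and served as background. At the limit of the window, the last peak inside lay 49687 bp from IL10RB (chr21:33215091-33216680, log2 fold change -0.56) and the first peak outside lay 50010 bp from IL27 (chr16:28448803-28449352, log2 fold change -0.12).

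THP-1 is a human cell line established from acute monocytic leukemia. Both groups carried a short hairpin RNA cassette that doxycycline induces, and doxycycline was added to both: the hairpin targeted PU.1 in knockdown cells and was a scramble sequence in control cells. The study compared them to learn where RUNX1 binds once its partner factor PU.1 is lowered. RUNX1 was immunoprecipitated in 6 control and 6 knockdown libraries from 2 experimental rounds, called batches, with 3 control and 2 knockdown libraries in batch 1 and 3 and 4 in batch 2. The 2 groups were separate derivatives of THP-1, each with its own hairpin. An effect of lower PU.1 therefore cannot be told apart from another difference between the derivatives. The paper describes the replicates as separate immunoprecipitations and library preparations. The labels do not say whether they came from separate cultures, so p-values measure the spread between these libraries. ChIP-seq reads DNA, so neither the PU.1 level nor any marker of the cell type could be checked from these counts. The paper examined PU.1 protein in such knockdown and control cells by Western blot. Fewer cells with bound RUNX1 cannot be told apart from less RUNX1 per cell.

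Interleukins are secreted proteins with which blood and immune cells instruct one another. Most of the receptors on this list pair a ligand-specific chain with a shared chain, such as the common γ chain (IL2RG) or gp130 (IL6ST), and pass the signal to JAK kinases and STAT factors, whereas receptors of the IL-1 family signal through the adaptor MYD88 and IRAK kinases. RUNX1 and PU.1 are DNA-binding factors of the myeloid lineage that frequently occupy the same regulatory elements, with RUNX factors recognising a TGTGGT core and PU.1 an ETS element around GGAA.

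RUNX1 peaks overlapped the 250 bases upstream of an annotated start of 8 of the 33 genes for which RefSeq (GRCh38.p14) gave a promoter window. The 4 of them at which binding differed between the groups are shown, 5′ to 3′ on the plus strand, because their peaks cover an annotated start. Reads were counted over whole peaks (3421 bp at IL6R), so the change is not located within a peak. Capitals mark the RUNX cores TGTGGT and TGCGGT and the ETS elements GAGGAA and GGAAGT, searched on both strands and not overlapping each other here. The windows lie at chr1:154405093-154405342 (IL6R), chr5:35856641-35856890 (IL7R), chr15:81296720-81296969 (IL16, an internal start) and chr16:27427021-27427270 (IL21R, an internal start).
IL6R: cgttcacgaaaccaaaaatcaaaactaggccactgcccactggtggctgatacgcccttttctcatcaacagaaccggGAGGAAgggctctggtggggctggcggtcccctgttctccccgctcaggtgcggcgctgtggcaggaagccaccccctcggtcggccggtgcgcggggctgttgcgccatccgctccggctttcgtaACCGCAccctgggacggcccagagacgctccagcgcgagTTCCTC
IL7R: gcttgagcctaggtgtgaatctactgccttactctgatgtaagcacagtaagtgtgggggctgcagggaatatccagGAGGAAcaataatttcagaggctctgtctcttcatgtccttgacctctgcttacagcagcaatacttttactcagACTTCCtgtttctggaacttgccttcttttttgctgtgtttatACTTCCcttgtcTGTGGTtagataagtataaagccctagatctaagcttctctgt
IL16: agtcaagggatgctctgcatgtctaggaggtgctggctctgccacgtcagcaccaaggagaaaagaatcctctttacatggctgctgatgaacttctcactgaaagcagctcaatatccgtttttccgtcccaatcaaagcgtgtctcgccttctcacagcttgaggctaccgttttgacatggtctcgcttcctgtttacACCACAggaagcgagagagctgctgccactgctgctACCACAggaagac
IL21R: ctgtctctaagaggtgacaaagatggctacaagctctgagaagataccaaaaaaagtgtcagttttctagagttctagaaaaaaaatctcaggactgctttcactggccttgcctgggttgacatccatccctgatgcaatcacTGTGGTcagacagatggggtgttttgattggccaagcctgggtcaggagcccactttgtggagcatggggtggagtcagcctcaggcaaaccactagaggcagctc

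The IL7R window held 1 RUNX core and 3 ETS elements and the IL6R window 1 RUNX core and 2 ETS elements. The IL16 window held 2 TGTGGT cores close to its start and neither of the ETS elements searched. As printed, the letters GGAA directly follow both of these cores, and GGAA alone was not searched. The IL21R window held 1 TGTGGT core. Windows of the other bound promoters (IL12A, IL6ST and IL27RA) held none of the 4 motifs, and both IL18RAP windows held a TGTGGT core, with a GGAAGT element in 1 of them. Of 35116 RefSeq promoter windows of the same length, 16.3% held either RUNX core and 37.1% either ETS element, so a match is a description of these letters only.

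PU.1 knockdown was accompanied by gained and lost RUNX1 binding around interleukin genes in nearly equal numbers. A change was called at 52 of the 129 peaks (DESeq2 with batch as covariate, Benjamini-Hochberg adjusted p under 0.05 over all peaks and a fold change over 1.1), with 27 peaks gained and 25 lost. These are 40.3% of the peaks, beside 40.6% called among the other peaks near protein-coding genes (20.9% gained beside 20.5%, and 19.4% lost beside 20.1%). The interleukin genes as a list therefore stood at the background. By edgeR 60 of the peaks were called, beside 45.7% of the others, and relative to the median of its 10 Mb window 54 were, beside 39.3%. The median log2 fold change was -0.025 over the 129 peaks and -0.033 over the others. The counts are scaled so that the bulk of peaks centres near 0, which would hide a global gain or loss.

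The median log2 fold change was 0.97 over the gained peaks and -0.75 over the lost peaks, and 21 of the 129 peaks were called with a change over 2-fold, 16.3% beside 15.8% of the other peaks. Among the 35 genes with peaks, 25 had at least 1 called peak: 6 had gained peaks only, 10 had lost peaks only and 9 had both. The share of other genes with a called peak was not counted, so these gene counts are a description only. With 40.6% of the other peaks called, a gene with several peaks would often hold a call. The 10 genes with peaks but no call were IL2RA, IL2RG, IL11RA, IL12A, IL23A, IL27, IL10RA, IL17RB, IL5RA and IL32. A median of 34 reads per library lay behind each value and the fitted log2 fold changes had a median SE of 0.20, so small changes at these genes were not detectable at this depth.

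**Figure D1:**
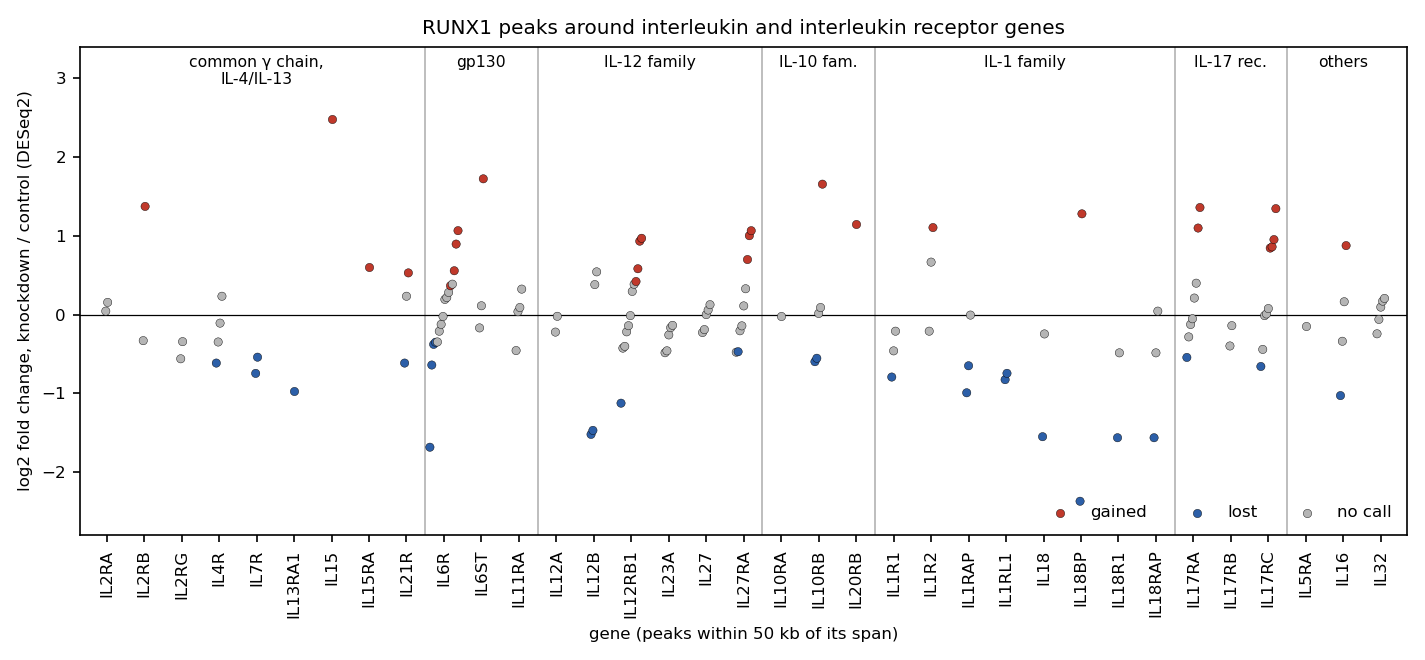
DESeq2 log2 fold change (knockdown over control) of every RUNX1 peak within 50 kb of each gene, with genes grouped by receptor family, red for gained, blue for lost and grey for uncalled peaks. IL15 carries the highest point (2.49), IL18BP the lowest (-2.37), and blue points outnumber red in the IL-1 family (8 lost and 2 gained peaks). A peak near 2 genes is drawn under each of them. Among the other peaks near protein-coding genes, 20.1% were lost and 20.5% gained.

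In the gp130 family, which transmits IL-6 type signals, 23 peaks were listed, with 5 gained, 4 lost and 14 uncalled. Of these, 16 surrounded IL6R, the ligand-binding chain for interleukin 6, and this gene gained binding downstream while it lost binding at its start. The strongest peak near any listed gene by mean count covered the IL6R start (chr1:154404445-154407865). Its normalised read counts ran from 213 to 271 in control libraries (median 237) and from 157 to 209 in knockdown libraries (median 178). The groups did not overlap (log2 fold change -0.38 ± 0.09, SE, DESeq2 adjusted p = 7.05e-05).

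Deeper in the gene, at chr1:154444464-154446113, the order was opposite. Control libraries held 63.4 to 114 normalised reads (median 88.0) and knockdown libraries 167 to 233 (median 181). Every knockdown library lay above every control library, with a log2 fold change of 1.07 ± 0.13 (SE, DESeq2 adjusted p = 3.95e-15). A second peak within the gene (chr1:154453381-154454536) rose from 27.6 ± 9.84 to 54.1 ± 12.1 (mean ± SD, n = 6 each) with a log2 fold change of 0.90. Upstream of the start, the peaks at chr1:154400169-154400976 and chr1:154402812-154404378 fell with log2 fold changes of -0.64 and -0.35, the latter called in only 3 of the 12 fits that left out 1 library.

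The losses around the IL6R start depended on the regional level. Peaks of the surrounding 10 Mb window had a median log2 fold change of -0.19. Relative to that level the start peak (-0.19), chr1:154400169-154400976 (-0.45) and chr1:154402812-154404378 (-0.16) were no longer called, whereas the gain within the gene still was (1.26). Peaks uncalled in the main fit at chr1:154373813-154374601 (0.41) and chr1:154410791-154412038 (0.58) were called gained relative to it. Downstream of the gene, towards SHE, peaks at chr1:154474446-154475343 and chr1:154486444-154487596 were gained (0.56 and 0.37) and chr1:154493275-154493724 was lost (-1.69), singled out after its value was seen. IL6ST, the gp130 chain itself, had an uncalled peak at its start (40.0 ± 8.25 against 34.5 ± 7.34 normalised reads, log2 fold change -0.17) and gained a weak one 36644 bp downstream (chr5:55897857-55898451, 5.34 ± 1.38 to 18 ± 3.15, log2 fold change 1.73). All 4 peaks near IL11RA, the receptor chain for interleukin 11, were uncalled.

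**Figure D2:**
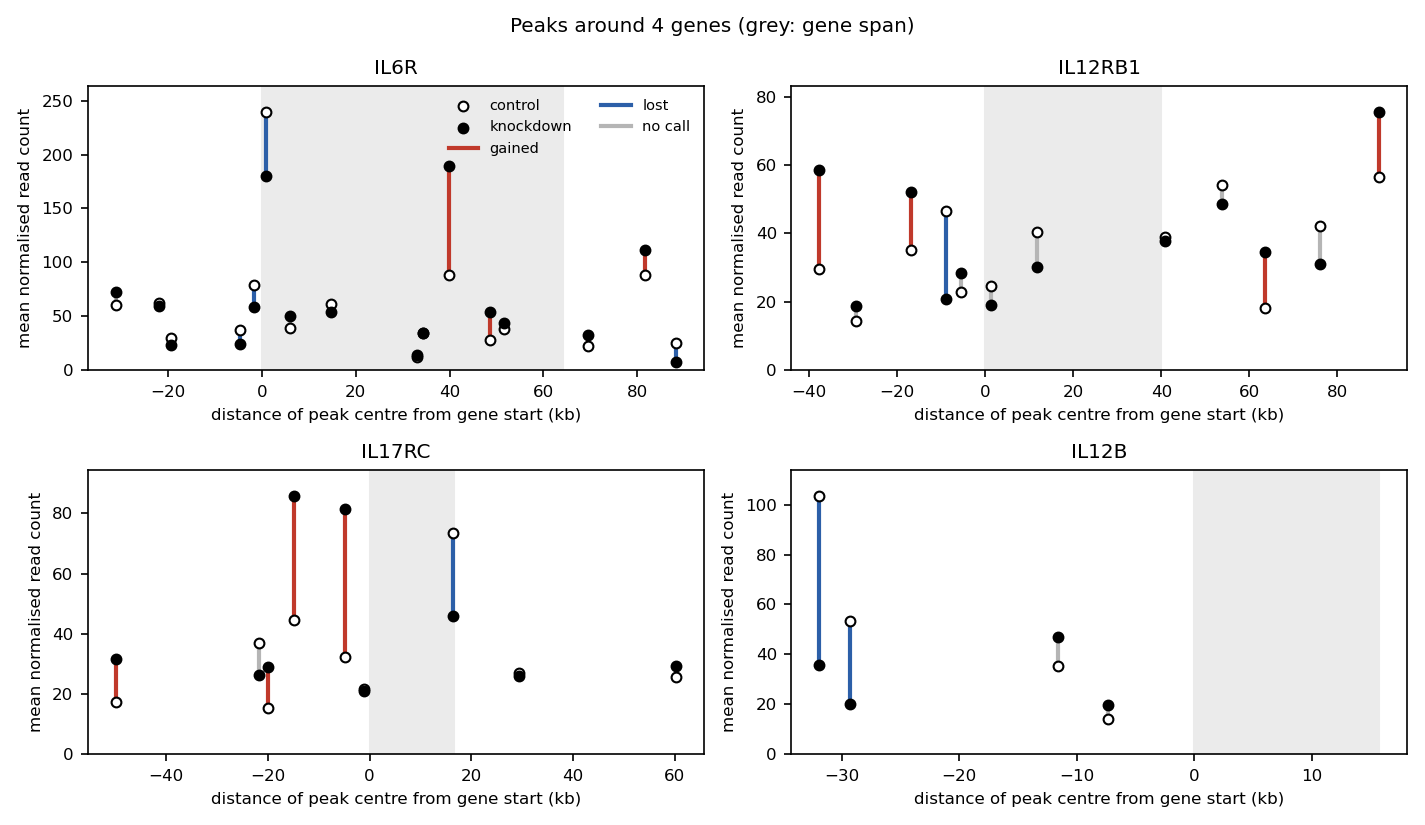
Mean normalised read count of control (open) and knockdown (filled) libraries at each peak, plotted against the distance in kb of its centre from the first annotated start of IL6R, IL12RB1, IL17RC and IL12B, with the gene span in grey and the line coloured by call. The IL6R start peak falls (239.7 to 181) while a peak within the gene rises (88.1 to 189), and both strong IL12B peaks upstream of the gene fall.

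The 11 genes of the common γ chain family and the IL-4 and IL-13 receptors carried 16 peaks, 4 gained, 4 lost and 8 uncalled. IL7R, the interleukin 7 receptor chain of lymphoid cells, lost both of its peaks. At its start (chr5:35856519-35857290), control libraries held 31.2 to 49.4 normalised reads (median 40.1) and knockdown libraries 19.2 to 30.4 (median 23.4). The groups did not overlap, and the log2 fold change was -0.75 ± 0.20 (SE, DESeq2 adjusted p = 0.000804). The peak 4582 bp downstream of IL7R fell from 83.0 ± 6.88 to 57.8 ± 5.83 (mean ± SD, log2 fold change -0.54). IL13RA1, a chain of the receptor shared by interleukins 4 and 13, had 1 peak, 8513 bp upstream (chrX:118717815-118719093). Control libraries there held 33.8 to 59.6 normalised reads (median 42.4) and knockdown libraries 13.9 to 33.3 (median 24.9). It was lost with every knockdown library below every control library (log2 fold change -0.97 ± 0.22, SE, DESeq2 adjusted p = 6.15e-05).

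Near interleukin 15 and chains of its receptor, the called peaks were gained. The single peak near IL15, a growth factor for natural killer and memory T cells, lay 23115 bp beyond the high-coordinate end of the gene (chr4:141757102-141757747) and rose from 5.74 ± 4.21 to 29.9 ± 3.10 normalised reads (mean ± SD, n = 6 each), a log2 fold change of 2.49 ± 0.35 (SE, DESeq2 adjusted p = 2.35e-11). This was the highest log2 fold change of the 129 peaks and was singled out after the values were seen, since its mean count fell below the minimum of 20 set for naming. A peak 2518 bp downstream of IL15RA, which presents IL15, was gained more weakly (0.61 ± 0.23, SE), was called in 6 of the 12 fits that left out 1 library and was not called relative to its 10 Mb window. Within IL2RB, the β chain used by IL2 and IL15, a peak was gained from 11.7 ± 4.28 to 28.6 ± 6.85 (log2 fold change 1.37). The mean count of this IL2RB peak was 20.1, just above the minimum of 20.

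The neighbours IL4R and IL21R share 2 of their peaks. The peak 2530 bp upstream of IL21R was lost (log2 fold change -0.62) and the one over the IL21R 5′ end was uncalled (42.8 ± 6.43 against 50.1 ± 7.86 normalised reads). The peak over the internal IL21R start printed above was gained (chr16:27426616-27427517, 31.7 ± 7.13 to 47.0 ± 12.5 normalised reads) at a log2 fold change of 0.53 ± 0.20 (SE, DESeq2 adjusted p = 0.0246). The log2 fold change of this peak was 0.89 in batch 2 and 0.05 in batch 1. This difference between the batches did not pass an adjusted p under 0.05 (DESeq2). The peaks of IL2RA and IL2RG, the α and common γ chains, were all uncalled (log2 fold changes between -0.56 and 0.15).

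The IL-12 family held 37 peaks around 6 genes, with 7 gained, 4 lost and 26 uncalled. IL12B encodes the p40 subunit shared by interleukins 12 and 23 and is produced by activated monocytes and dendritic cells. Its 2 strong upstream peaks were lost together, and the one at chr5:159361876-159362860, 31389 bp upstream, had the smallest adjusted p of the 129 peaks. Control libraries there held 98.0 to 113 normalised reads (median 104) and knockdown libraries 30.9 to 45.7 (median 33.7). The gap between the groups was wider than the spread within either, and the log2 fold change was -1.52 ± 0.14 (SE, DESeq2 adjusted p = 8.46e-24). The second, 28795 bp upstream (chr5:159359282-159360256), ran from 39.9 to 70.6 in control libraries (median 52.0) and from 16.4 to 24.2 in knockdown libraries (median 20.4). It was lost to a similar degree (-1.47 ± 0.19, SE, DESeq2 adjusted p = 1.31e-12), whereas 2 weaker peaks between these and the gene were uncalled, at 0.38 and 0.54. For the second IL12 subunit, IL12A, and for IL23A, the partner of p40 in interleukin 23, no peak was called, and the start peak of IL12A measured 41.1 ± 5.53 against 34.9 ± 7.11 normalised reads.

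The receptor chain IL12RB1, which serves both of these cytokines, carried 12 peaks with gains and losses side by side, several of them within the neighbouring gene MAST3. The peak at chr19:18136175-18137056, 37248 bp upstream, ran from 19.5 to 38.0 in control libraries (median 28.5) and from 46.6 to 64.3 in knockdown libraries (median 60.1). It was gained without overlap (log2 fold change 0.97 ± 0.18, SE, DESeq2 adjusted p = 1.14e-06). Closer to the gene, at chr19:18107201-18108543, 8274 bp upstream, control libraries held 33.0 to 63.4 (median 45.3) and knockdown libraries 13.2 to 28.3 (median 20.5). Here the order was reversed, again without overlap (-1.13 ± 0.21, SE, DESeq2 adjusted p = 9.45e-07). The remaining 3 gained peaks of IL12RB1 had log2 fold changes of 0.42, 0.58 and 0.93.

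IL27RA, the ligand-binding chain for interleukin 27, gained binding within the gene. At chr19:14041973-14043421 control libraries held 15.8 to 34.7 normalised reads (median 28.4) and knockdown libraries 45.1 to 60.3 (median 52.1). The groups did not overlap (log2 fold change 1.0 ± 0.20, SE, DESeq2 adjusted p = 2.88e-06). The next peak in the gene (chr19:14046610-14047796) rose from 45.8 ± 5.23 to 73.1 ± 7.03 (0.70). Its start peak was uncalled (34.3 ± 8.67 against 27.5 ± 7.80). The peak over an end of RFX1, 24269 bp upstream, was lost (144 ± 18.7 to 103 ± 13.6, log2 fold change -0.47). None of the 5 peaks near IL27, the ligand gene, was called.

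Around the IL-1 family, which drives inflammatory signalling through MYD88, losses outnumbered gains: of 17 peaks near 8 genes, 8 were lost, 2 were gained and 7 were uncalled, with a median log2 fold change of -0.49. Among the other peaks near protein-coding genes, 20.1% were lost and 20.5% were gained, with a median log2 fold change of -0.033. The family was not tested against other genes. IL18, an inflammatory cytokine processed in monocytes, lost a peak 14911 bp beyond the high-coordinate end of the gene, within BCO2 (chr11:112179005-112179997). Control libraries held 30.5 to 45.1 normalised reads (median 37.1) and knockdown libraries 6.61 to 17.8 (median 13.1). No knockdown library reached the lowest control library (log2 fold change -1.55 ± 0.24, SE, DESeq2 adjusted p = 2.29e-09). The peak within IL18 itself was uncalled (28.7 ± 6.96 against 25.4 ± 5.86).

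Lost peaks were also listed near other components of interleukin 18 signalling. IL18BP, the secreted protein that neutralises IL18, had a lost peak 6929 bp upstream that fell from 19.9 ± 5.56 to 4.06 ± 1.04 (chr11:71991426-71991980, log2 fold change -2.37 ± 0.37, SE, DESeq2 adjusted p = 3.42e-09, singled out after its value was seen). Another weak peak, 1615 bp upstream, was gained (5.65 ± 4.69 to 14.8 ± 1.43, log2 fold change 1.28). Both of these IL18BP peaks lay within the neighbouring gene RNF121. The receptor chains IL18R1 and IL18RAP shared a lost peak within IL18RAP (16.6 ± 5.77 to 6.29 ± 4.19, log2 fold change -1.57), and the peak over the IL18RAP start was uncalled at -0.49 (DESeq2 adjusted p = 0.0789).

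Losses were also found at receptor genes of interleukins 1 and 33. A peak within IL1R1, the signalling receptor, was lost (43.0 ± 7.87 to 25.9 ± 5.02, log2 fold change -0.79), as were 2 of the 3 peaks within IL1RAP, the accessory chain of both receptors (-0.99 and -0.65), and both peaks upstream of IL1RL1, the receptor for interleukin 33 (-0.83 and -0.75). The decoy receptor IL1R2 gained a weak peak 34867 bp upstream (8.85 ± 5.4 to 20.2 ± 2.59, log2 fold change 1.11).

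**Figure D3:**
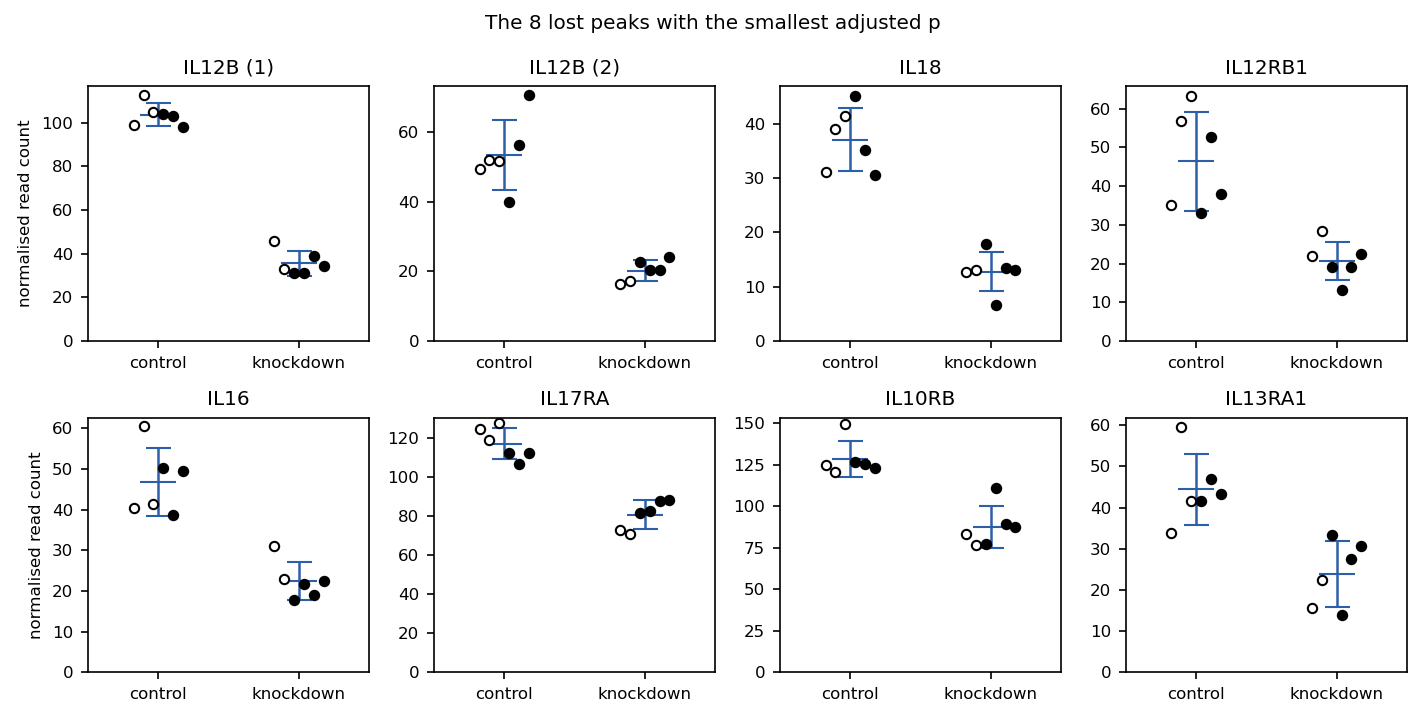
Normalised read counts of each library at the 8 lost peaks with the smallest adjusted p among peaks with a mean count of at least 20 (open circles batch 1, filled circles batch 2, bars mean ± SD of 6 libraries). The knockdown libraries lie below the control libraries in every panel, and the first IL12B peak shows the widest separation (medians 104 and 33.7).

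Of the IL-10 family receptors, IL10RB, the chain shared by several receptors of this family, gained its closest downstream peak and lost 2 others. At chr21:33314044-33314888, 3862 bp downstream, control libraries held 4.61 to 22.5 normalised reads (median 13.5) and knockdown libraries 36.2 to 53.4 (median 44.8). The knockdown libraries all lay above the controls (log2 fold change 1.66 ± 0.24, SE, DESeq2 adjusted p = 2.71e-10). At the far upstream peak near the limit of the window (chr21:33215091-33216680), control libraries held 121 to 149.8 (median 125) and knockdown libraries 77.0 to 111 (median 85.4). It fell without overlap (-0.56 ± 0.12, SE, DESeq2 adjusted p = 2.33e-05), and the peak within the gene (chr21:33308714-33309500) fell from 43.0 ± 7.29 to 28.2 ± 4.82 (-0.60).

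IL20RB, a receptor chain for interleukins 20 and 24, had a single peak, 12018 bp downstream (chr3:137023103-137023974). Control libraries held 42.2 to 58.6 normalised reads (median 48.4) and knockdown libraries 96.8 to 138 (median 112). Its groups did not overlap (log2 fold change 1.15 ± 0.14, SE, DESeq2 adjusted p = 2.64e-14). The peak upstream of IL10RA, the ligand-binding chain for interleukin 10, was uncalled (53.2 ± 7.97 against 53.1 ± 5.47).

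The IL-17 receptors carried 19 peaks, 6 gained, 2 lost and 11 uncalled. Upstream of IL17RC, a pair of strong gained peaks lay next to or over IL17RE, a related receptor gene. At chr3:9911618-9912891, 4207 bp upstream of IL17RC, control libraries held 21.9 to 41.0 normalised reads (median 32.8) and knockdown libraries 71.4 to 91.8 (median 81.2). The log2 fold change was 1.35 ± 0.17 (SE, DESeq2 adjusted p = 1.08e-13), with no overlap between the groups. At chr3:9901370-9902973, 14125 bp upstream, they held 38.0 to 50.7 (median 43.4) and 74.0 to 97.7 (median 88.6), again without overlap (0.95 ± 0.15, SE, DESeq2 adjusted p = 3.54e-09). In contrast, the peak over the 3′ end of IL17RC (chr3:9932588-9934577) was lost (73.4 ± 15.3 to 45.9 ± 5.52, log2 fold change -0.66).

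IL17RA, the receptor chain common to the family, had 8 peaks, among them the second strongest near any listed gene (chr22:17086941-17088533). That peak within the gene measured 119 to 164 in control libraries (median 130.4) and 152 to 168 in knockdown libraries (median 160.5). The groups overlapped and it was uncalled by DESeq2 (log2 fold change 0.21 ± 0.10, SE, adjusted p = 0.0939) but called by edgeR (adjusted p = 0.0452). A further peak inside the gene (chr22:17106246-17107508) was lost, from 107 to 128 (median 116) in control to 71.1 to 88.5 (median 82.3) in knockdown libraries. This loss was modest and free of overlap (-0.55 ± 0.12, SE, DESeq2 adjusted p = 2.27e-05). Outside the gene, 4764 bp from its low-coordinate end (chr22:17079243-17080236), control libraries held 10.4 to 31.7 (median 21.8) and knockdown libraries 33.8 to 66.2 (median 49.5). This peak was gained (1.1 ± 0.21, SE, DESeq2 adjusted p = 1.87e-06), as was one over an end of HDHD5, 49435 bp from the other end of IL17RA (10.9 ± 3.15 to 27.5 ± 5.34, log2 fold change 1.36). Both peaks near IL17RB were uncalled.

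**Figure D4:**
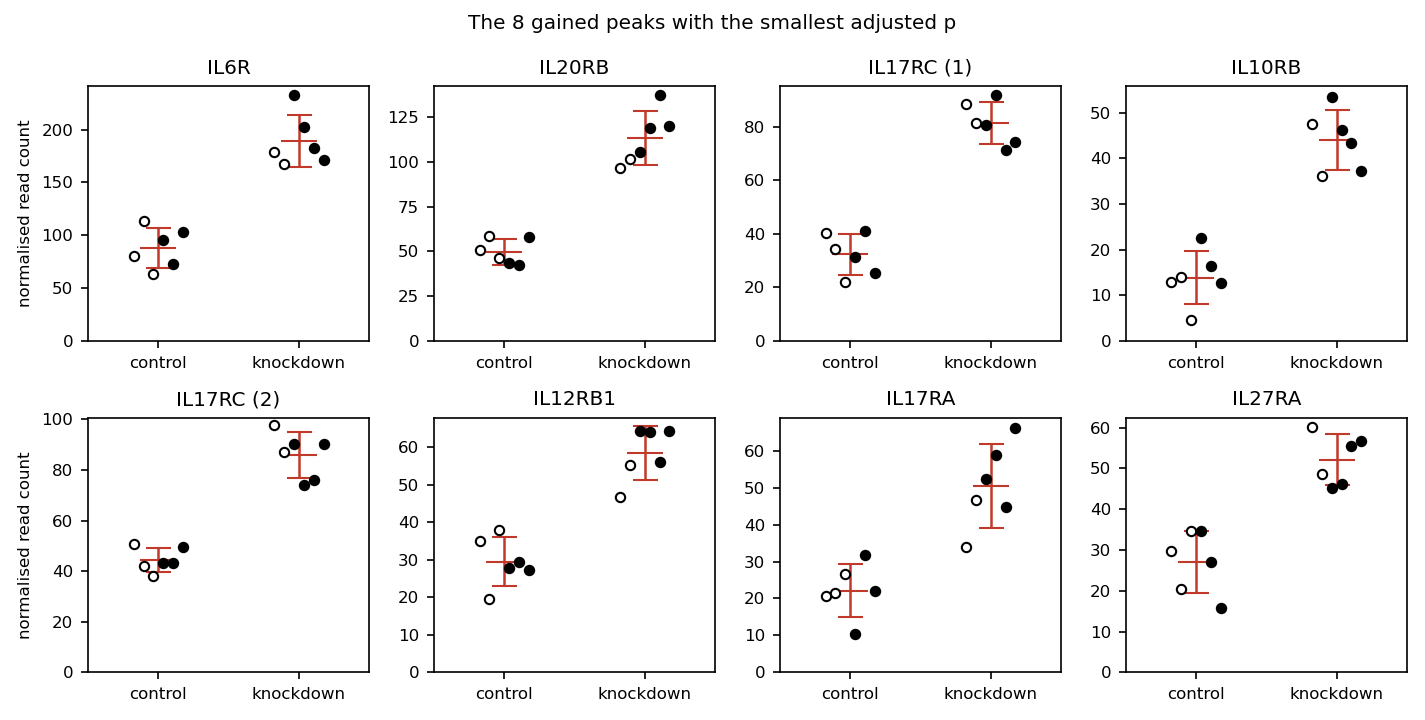
Normalised read counts of each library at the 8 gained peaks with the smallest adjusted p among peaks with a mean count of at least 20 (open circles batch 1, filled circles batch 2, bars mean ± SD of 6 libraries). The knockdown libraries lie above the control libraries in every panel, for example with medians of 88.0 and 181 at IL6R and of 13.5 and 44.8 at IL10RB.

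Among the remaining genes, IL16, a chemoattractant for CD4+ cells, lost the peak over the internal start printed above (chr15:81296615-81297280). Control libraries held 38.7 to 60.5 normalised reads (median 45.5) and knockdown libraries 17.8 to 31.1 (median 22.1). The groups did not overlap (log2 fold change -1.03 ± 0.20, SE, DESeq2 adjusted p = 1.84e-06). A peak 24339 bp downstream of IL16 was gained (15.9 ± 5.25 to 29.9 ± 2.40, log2 fold change 0.88). No peak near IL32 or IL5RA was called.

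Calls were then counted by position. Of the 8 peaks that overlapped an end of a listed gene, 3 were lost (IL6R, IL7R and IL17RC), 5 were uncalled and 0 were gained. The share among other peaks that overlap a gene end was not counted, so these numbers are a description only. Among the 43 listed peaks within 1 kb of an end of any protein-coding gene, 4 were gained and 6 were lost, beside 6.17% gained and 19.0% lost for other such peaks. The 86 peaks farther away held 23 gained and 19 lost, beside 26.1% and 20.5%. In both sets losses outnumbered gains near gene ends and gains outnumbered losses farther away, and no test was made between the sets. Taken as log2 deviation from the control mean, the median of all gene-end peaks minus that of all other peaks was 0.28 in control replicate 1, between -0.10 and -0.015 in the other 5 controls, and between -0.41 and -0.12 in knockdown libraries. Its part in the result was not tested. Without control replicate 1 the same fit called 53 listed peaks, 28 gained and 25 lost.

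The window also brought in peaks that belong to neighbouring genes. Of the 129 peaks, 64 had a listed gene as their nearest protein-coding gene (12 gained, 19 lost, median log2 fold change -0.12) and 65 did not (15 gained, 6 lost, median 0.0078). These are 18.8% gained and 29.7% lost for the former and 23.1% and 9.23% for the latter, beside 20.5% and 20.1% of the other peaks near protein-coding genes, with no test of the difference. The 36 peaks overlapping the span of a listed gene held 6 gained and 10 lost (16.7% and 27.8%), beside 18.3% and 20.2% of other peaks overlapping protein-coding genes. A peak near a gene was not shown to act on it.

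**Figure D5:**
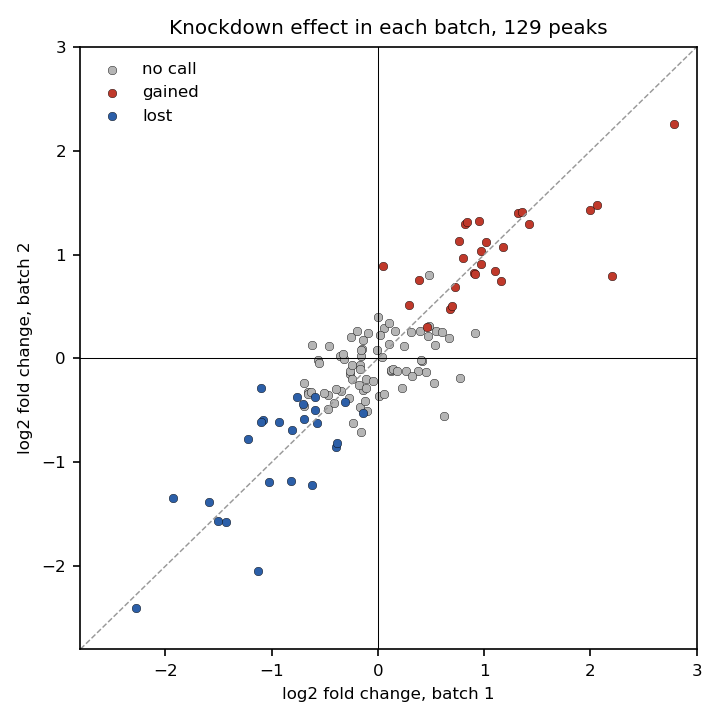
DESeq2 log2 fold change of each of the 129 peaks in batch 2 (3 control, 4 knockdown libraries) against batch 1 (3 control, 2 knockdown libraries), coloured by the call over both batches, with the dashed line marking equal values. The 52 called peaks, chosen by a fit that pools the batches, lie where both batches have the same sign.

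The changes were then examined within each batch. Batch 1 alone called 15 peaks (8 gained, 7 lost, beside 11.4% of the other peaks, 5.16% gained and 6.19% lost) and batch 2 called 33 (18 gained, 15 lost, beside 24.7%, 12.3% gained and 12.5% lost). The 52 calls came from a fit that pools the batches, which favours a shared sign: all 52 had the same sign in either batch, as did 99.9% of the calls among the other peaks. The 14 peaks called in each batch alone had the same direction, and the share of such peaks among the others was not counted. At 40 peaks the 2 groups were fully separated in both batches, with knockdown above control at 21 and below at 19, beside 26.8% of the other peaks (13.6% above, 13.2% below). The knockdown effect differed between batches for 0 of the 129 peaks by the DESeq2 interaction term at an adjusted p under 0.05. Unadjusted, 2 peaks passed 0.05 (2.46% of the other peaks did): the internal IL21R start and a peak 12555 bp downstream of IL17RC (log2 fold changes 0.63 in batch 1 and -0.56 in batch 2).

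Genes that act downstream of or together with these receptors were read from a separate list of 23 shared chains, kinases, STAT factors, feedback inhibitors and adaptors. Around them 101 peaks were listed, of which 5 near STAT2 are also near IL23A. Of the 96 others, 20 were gained and 19 were lost, 40.6% in all, beside 40.6% of the other peaks near protein-coding genes. The genes with called peaks named next were singled out after their values were seen. IL3RA, the ligand-binding chain for interleukin 3, lost both of its peaks (log2 fold changes -1.54 and -1.40), and JAK2, the kinase it uses through the shared β chain, lost all 3 of its peaks (-1.31 to -0.63). STAT6, which acts behind the IL-4 receptor, had 4 gained and 1 lost of 9 peaks, and JAK3, the kinase bound to the common γ chain, 3 gained and 1 lost of 6. STAT5B had 2 gained and 1 lost of 11 peaks, and SOCS1, CISH and TRAF6 had 2 gained and 0 lost each. No peak was called near JAK1, STAT2, STAT3, STAT5A, IRAK4 or CSF2RB.

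Control libraries had 630247 to 1199004 reads inside peaks and knockdown libraries 938745 to 1719840. The listed peaks took 0.490% to 0.507% of them in every library. The authors called the peaks from these very libraries, so their choice is not independent of the groups, and a region without a listed peak may still be bound.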

How the data were processed

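RUNX1 ChIP-seq was measured in 12 THP-1 libraries (6 control, 6 knockdown), and 8 IgG libraries were not analysed here. The authors aligned reads with Bowtie2, removed duplicates, called peaks with MACS2 per condition and batch, merged the reproducible ones and counted reads with featureCounts (versions not given in the sources used here). The deposited values are raw counts per peak, without normalization, with each peak's width in bp, an other column that was not tested. The labels name GRCm38 and GRCh38. The coordinates were taken as GRCh38, since 24.4% of peaks lay within 1 kb of a GRCh38.p14 gene end against 5.48% to 7.58% after shifting them. The gene table gives no exons.

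Counts of all 26642 peaks were fitted with DESeq2 1.42.0 in R 4.3.3 (batch + genotype, median-of-ratios size factors, called at an adjusted p under 0.05 and a fold change over 1.1), and normalised counts are counts divided by size factors. The same fit was run within each batch and with a genotype by batch term. edgeR 4.0.16, further size factors, a fit lacking batch, a replicate block, count, fold and window limits, 10 Mb centring and leaving out each library served as alternatives. Scripts were tested on simulated data. Comparing libraries of the same group gave chi-square values of 1.29 to 2.24 for each degree of freedom, above sampling noise. No pair within a group therefore looked like reads of the same library counted again. This comparison cannot show whether libraries shared a culture or chromatin. Given in full are the 8 gained and 8 lost peaks with the smallest adjusted p and a mean of at least 20 normalised counts, the 3 peaks with the highest mean, and peaks over a gene end by their means. The genes, families, pathway list and rules were chosen with earlier results of these data known. Of the listed genes, 33 of 39 matched a RefSeq promoter window. Depth is given as reads within peaks, and weak peaks carry large counting error.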

Additional observations from a re-analysis of the deposited data

Results flagged for a closer look

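Among the 26 quantities given per library (52 groups of 6), 3 groups held a library far from the other 5 relative to the group's range, where chance gives about 1 in 20 groups, or 2.6. At the distal upstream IL10RB peak (chr21:33215091-33216680), control replicate 3 measured 149.8 normalised reads against 121 to 127 in the other controls, and knockdown replicate 4 measured 111 against 77.0 to 89.2 in the other knockdown libraries. That peak was called lost in all 12 fits that left out 1 library. At the IL12A start (chr3:159988058-159989616), control replicate 5 measured 30.5 normalised reads against 40.3 to 45.3 in the other controls, and the peak was uncalled with all libraries. The cause was not tested.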

How the results depend on the processing

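The 52 calls (27 gained, 25 lost) ranged from 38 to 60 over edgeR, other size factors, no batch covariate, no independent filtering, 10 Mb centring and a minimum of 10 counts in every library, and from 47 to 53 (24 to 28 gained, 22 to 26 lost) when each library was left out. They fell by construction to 21 (13 gained, 8 lost) for changes over 2-fold, 30 (12 gained, 18 lost) within 10 kb, 16 (6 gained, 10 lost) over the gene span and 31 (12 gained, 19 lost) where a listed gene was nearest. The median log2 fold change of -0.025 moved to -0.049 without the batch covariate, -0.057 over the 103 peaks with at least 10 counts in every library, -0.13 within 10 kb, -0.15 over the gene span, -0.12 where a listed gene was nearest, and between -0.10 (without control replicate 5) and -0.020 (without control replicate 6) when 1 library was left out. The cause of these shifts was not tested.

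The 15 calls of batch 1 (5 libraries) became 40 with edgeR and between 0 and 13 when 1 library was left out, with 7 without control replicate 2, 4 without control replicate 3, 1 without knockdown replicate 1 and 0 without knockdown replicate 2. In the last 2 fits 1 knockdown library remained, assumed to vary like the controls. In each of them 17 peaks had an unadjusted p under 0.05, and DESeq2 gave no adjusted p for 25 (without knockdown replicate 1) and 30 (without knockdown replicate 2) of the peaks. Batch 2 went from 33 calls to 50 with edgeR and to between 22 and 31 when 1 library was left out. Of the 52 calls, 43 were called in all 12 fits that left out 1 library. The others were the IL6R peaks at -0.35 (3 fits), 0.56 (7) and 0.37 (11), IL15RA (6), the IL21R peaks at -0.62 (7) and 0.53 (8), IL12RB1 at 0.42 (7), IL1RAP at -0.65 (7) and IL1RL1 at -0.83 (11). The 5 not called relative to their 10 Mb window were 3 at the IL6R start, IL15RA and the lost IL21R peak. Of the 54 peaks called relative to that window, 47 were among the 52, and the others were called only there.

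Replicate numbers did not pair the libraries: same-numbered libraries deviated together with correlations of -0.091 to 0.24, and number 3 spans the batches. With the replicate number as a block, 45 peaks were called (23 gained, 22 lost), all among the 52, and the median was -0.071. No result reversed.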
